A study of Homo sapiens with 7 samples.

Results

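Replication timing was compared between 2 human cell lines on all 7 arrays of the series, 3 hybridised with K562 DNA and 4 with U2OS DNA, as their titles state. K562 is a suspension line from a chronic myeloid leukaemia with erythroid and megakaryocytic traits. U2OS is an adherent osteosarcoma line. Per the labels, growing cells of both lines were pulsed for 2 h with 50 µM bromodeoxyuridine (BrdU), a thymidine analogue, and 80000 fixed cells were sorted into 2 fractions, early and late in S phase. BrdU-labelled DNA was then immunoprecipitated and amplified, and the early DNA was labelled with Cy3 (green) and the late DNA with Cy5 (red). The K562 arrays differed in procedure: 1 followed a new cell sorting method, 1 an old method, and 1, titled 44k, used an array design with fewer probes. The U2OS arrays were 2 titled manual and 2 titled automated. No line carried a further treatment or engineered allele, no dye swap was made, and the labels do not say whether arrays of a line came from separate cultures. The p-values below therefore measure the spread between these arrays, which includes the differences in procedure.

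Mammalian chromosomes replicate in large domains, in which neighbouring origins fire at about the same time in S phase. Early domains are in general rich in genes and open chromatin, and late domains are gene-poor and lie mostly at the nuclear periphery. Part of the genome changes its time between cell types, and such switches often accompany the activation or silencing of lineage genes, although transcription and timing can also change separately.

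Timing was expressed as log2(early/late), the log2 ratio of the background-corrected green and red signals, centred on the median autosomal probe of each array and averaged in windows of 250 kb. A value above 0 is early and a value below 0 is late relative to that array's median, so a difference between the lines is a difference in relative order and not in hours. Of 10665 autosomal windows with a probe on the larger design, 8436 had at least 3 probes on every array and were tested. A window was called where limma gave a Benjamini-Hochberg adjusted p under 0.05 over all windows and the K562 minus U2OS difference was at least 1 in size. A domain is a run of adjacent called windows of the same direction. Coordinates are those of the array files, on genome build hg19.

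The arrays measured timing through probes of 60 bases, and 4 are printed to show what was read in the middle of long domains that differ. Each is the probe on both array designs that lies nearest the domain centre among those for which the array lists no gene. Lower case is used throughout, as no stretch of them stands out.

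Probe at chr5:167706448-167706507, in the TENM2 and SLIT3 domain: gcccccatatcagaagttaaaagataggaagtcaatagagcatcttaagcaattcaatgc
Probe at chr5:14561601-14561660, in the TRIO and ANKH domain: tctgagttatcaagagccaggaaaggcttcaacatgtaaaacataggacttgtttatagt
Probe at chr7:7589167-7589226, in the ICA1 and COL28A1 domain: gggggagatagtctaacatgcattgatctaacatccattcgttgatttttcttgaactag
Probe at chr21:16042901-16042960, in the NRIP1 domain: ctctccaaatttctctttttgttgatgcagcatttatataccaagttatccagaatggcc

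The probe in the TENM2 and SLIT3 domain read -2.14, -0.86 and -1.46 on the new-sorting, old-sorting and 44k K562 arrays, and 0.51, 0.47, 1.13 and 0.81 on the manual 1, manual 2, automated 1 and automated 2 arrays of U2OS. The probe in the TRIO and ANKH domain read -1.80, -1.46 and -1.32 in K562 and 0.92, 0.90, 2.02 and 0.59 in U2OS, in the same order of arrays. Both were late on every K562 array and early on every U2OS array. The probe in the ICA1 and COL28A1 domain read 1.12, 0.53 and 0.74 in K562 and 0.22, -0.75, -1.91 and -1.20 in U2OS. The probe in the NRIP1 domain read 1.25, 0.78 and 0.53 in K562 and -0.57, -0.83, -1.30 and -1.42 in U2OS. For these 2 probes every K562 array lay above every U2OS array, although the manual 1 array was just early at the chromosome 7 probe. A probe is a single spot, and the windows below average several of them, with a median of 18 probes on the larger design and 5 on the 44k array.

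The lines differed by these limits in 1129 windows, 13.4% of those tested. The other 7307 windows had no call, which does not mean equal timing. K562 was later than U2OS in 763 windows (9.04%), which cover 191 Mb, and earlier in 366 windows (4.34%), which cover 91.5 Mb. The values of the 3 K562 arrays and the 4 U2OS arrays did not overlap in 2573 of the 8436 windows (30.5%) and in 1113 of the 1129 called ones. Earlier calls thus made up 32.4% of all calls. That share depended on the scale: it was 44.0% when each array was centred on its mean and 42.5% when no background was corrected. From the deposited log ratio it was 46.7%, or 45.1% after scaling to a common spread. It was 30.0% when the ratio used here was scaled to a common spread, 27.4% in 100-kb windows and 24.3% in 250-kb windows on the 6 arrays of the larger design. The median difference over all windows was -0.13 here and -0.01 after centring on the mean, so it follows the choice of centring. No window called in 1 direction was called in the other under any of the 7 processing settings tried on these windows.

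Most calls were exchanges between the early and the late side of the array median. In 504 of the 763 windows later in K562, K562 was late and U2OS was early, and in the other 259 windows both lines were late and K562 was later still. None of these windows was early in both lines. In 334 of the 366 windows earlier in K562, K562 was early and U2OS late, 29 were late in both lines and 3 were early in both. Over all called windows, 74.2% lay on opposite sides of 0, against 18.9% of all windows tested. This share ranged from 57.0% with the deposited, spread-scaled log ratio to 92.4% without background correction. A call needs a difference of at least 1 between values centred on the array median, which by itself favours opposite sides of 0. The contrast with all windows is thus partly built into the call and is a description only. At the edge of the call, the nearest called window (chromosome 16, 48750001-49000000) differed by -1.0002 and the nearest window left out for its size alone (chromosome 5, 41000001-41250000) by 0.99998.

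**Figure D1:**
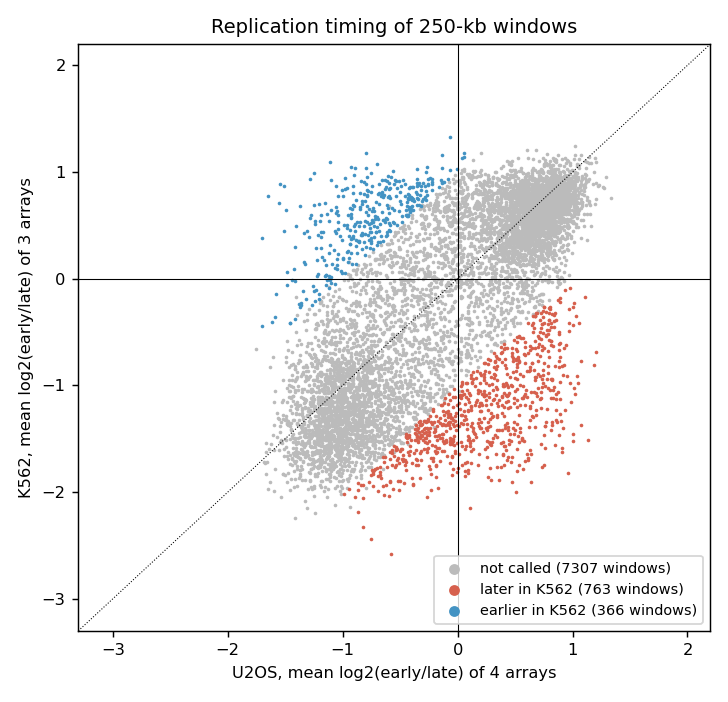
Each point is a 250-kb window, with the mean log2(early/late) of the 4 U2OS arrays on the horizontal axis and of the 3 K562 arrays on the vertical axis. The 763 windows called later in K562 lie below the dotted line of equality and reach into the quadrant that is late in both lines, whereas nearly all of the 366 windows called earlier in K562 lie in the quadrant that is early in K562 and late in U2OS.

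The manual and automated U2OS arrays gave unequal sizes of difference in the called windows. Against the mean of the manual arrays alone, the median difference was -1.33 in the windows called later in K562 and 0.96 in those called earlier. Against the automated arrays alone it was -1.45 and 1.62. A difference of 1 or more in size was present against both kinds of array in 597 of the 763 later windows but in only 164 of the 366 earlier ones: 166 of these reached it against the manual arrays and 364 against the automated arrays. All 1129 windows kept the sign of their difference against each kind. The calls were made on these same arrays, which nearly fixes this result, so it is no separate support. Window values had an SD of 0.56 (manual 1), 0.55 (manual 2), 1.03 (automated 1) and 0.97 (automated 2) in U2OS, and of 1.26 (new sorting), 0.61 (old sorting) and 0.92 (44k) in K562. The late channel was well above background for 8.99% of spots on the 44k array against 41.4% to 97.0% on the others, and the early channel for 45.4% on the old-sorting array against 74.8% to 94.5%. The part of spread and signal in the calls was not tested. Pearson correlations across windows, given as a description, were 0.57 to 0.72 for the 12 pairs of arrays of different lines, 0.81 to 0.97 within K562 and 0.91 to 0.99 within U2OS.

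The called windows formed 603 domains, 377 later in K562 and 226 earlier. The domains later in K562 had a mean length of 506 kb and a median of 500 kb, and the longest reached 2000 kb. The domains earlier in K562 had a mean of 405 kb and a median of 250 kb, and the longest reached 1750 kb. A lone window made up 176 of the later and 135 of the earlier domains (46.7% and 59.7%), while 44 later and 12 earlier domains measured 1 Mb or more. In all, 72.5% of called windows sat in runs of at least 2. At 331 of the 1206 domain ends (27.4%) no tested window lay next to the domain, so the lengths of the domains concerned may be cut short. The reason for this was not examined for each end. When runs were joined across 1 missing or uncalled window, 533 domains remained, of which 89 were 1 Mb or longer, and the longest measured 3000 kb. In 100-kb windows on the 6 arrays of the larger design, 837 domains had a mean length of 291 kb where later in K562 and 225 kb where earlier.

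**Figure D2:**
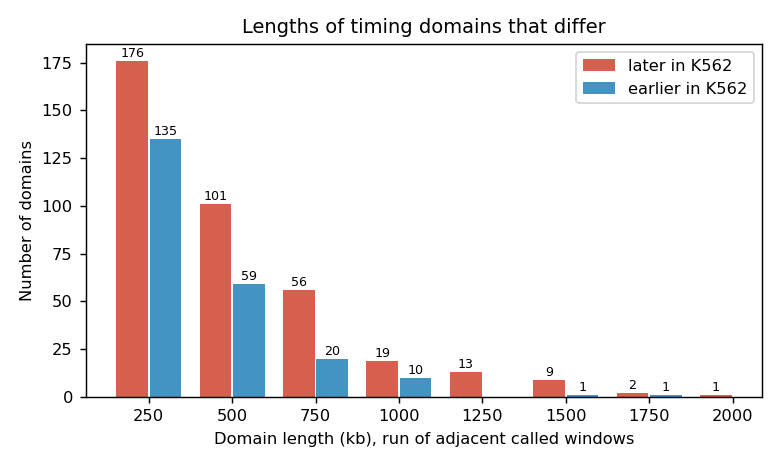
The bars give the number of domains at each length in kb, where a domain is a run of adjacent 250-kb windows called in the same direction. Single-window domains were the most frequent in both directions (176 later and 135 earlier in K562), and the later domains form the longer tail, up to 2000 kb.

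The mean difference by domain length was -1.28 in the lone windows later in K562, -1.37 in runs of 2, -1.52 in runs of 3 and -1.66 in runs of 5, and then -1.61 in runs of 6 and -1.57 in the run of 8. Among domains earlier in K562 it was 1.21 in lone windows, 1.35 in runs of 2, 1.41 in runs of 3 and 1.55 in runs of 4, then 1.41 in the run of 6 and 1.91 in the run of 7. The size rose over the short lengths and had no steady order among the few long ones. The length and the difference come from the same calls, so this is a description only.

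The surroundings of the switched domains were read where both neighbouring windows were tested. Among 108 such domains that were late in K562 and early in U2OS, both neighbours were late in K562 in 33, 1 neighbour was late in 57 and none in 18. In U2OS, the early line there, both neighbours were early in 38, 1 in 61 and none in 9. Among 124 domains early in K562 and late in U2OS, both neighbours were late in U2OS in 68, 1 in 49 and none in 7, while in K562 both neighbours were early in 40, 1 in 67 and none in 17. In both lines, most of these domains thus had at least 1 neighbour on the same side of 0. Of all windows tested, 3318 were late in both lines and 3521 early in both, so such neighbours are frequent everywhere, and the counts were not tested against that. Neighbouring windows enter with their values, whether or not they were called.

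The windows later in K562 were assigned fewer genes on average than all windows tested. Each gene counted only in the window with most of its probes, so a window within a long gene can count none. The later windows carried 1.15 tested genes on average, and 29.5% of them had none, against 1.89 genes and 25.5% over all windows tested. The median was 1 gene in both. The median share of probes with a gene name was 80% in the later windows and 81.25% in all. The windows earlier in K562 carried 1.39 genes on average, and 25.1% had none. Of 15907 genes assigned to the window with most of their probes, 874 lay in windows later in K562 (5.49%) and 510 in windows earlier in K562 (3.21%), or 8.7% together. The median gene had probes over 39.9 kb among those later, 30.9 kb among those earlier and 17.5 kb among all tested. By chromosome, called windows ranged from 3.70% on chromosome 22 to 18.4% on chromosome 7, with 18.2% on chromosome 10 and 17.8% on chromosome 5. Chromosomes 19 and 20, at 4.76% and 4.81%, also lay at the low end, and chromosome 22 had no window earlier in K562.

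The longest domain later in K562 covered 2000 kb of chromosome 5 (166750001-168750000) and held TENM2, a teneurin adhesion receptor, SLIT3, a secreted guidance ligand, and WWC1 (KIBRA), a regulator of Hippo signalling. Averaged over its 8 windows, it read -1.54, -0.59 and -1.18 on the new-sorting, old-sorting and 44k K562 arrays and 0.16, 0.28, 0.72 and 0.70 on the manual 1, manual 2, automated 1 and automated 2 U2OS arrays. It was late on every K562 array and early on every U2OS array. Its window with the largest difference (167250001-167500000) fell by 2.14 (SE 0.31, adjusted p = 0.00115). The old-sorting array stood nearer to U2OS than the other K562 arrays, and all 8 windows stayed called in only 3 of the 7 fits that left out an array.

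A second domain of chromosome 5 (13500001-15250000, 1750 kb) held TRIO, a guanine nucleotide exchange factor, DNAH5, a ciliary dynein heavy chain, and ANKH, a regulator of pyrophosphate export and mineralisation. It read -1.75, -1.06 and -1.21 in K562 and 0.45, 0.54, 0.77 and 0.57 in U2OS, in the same order of arrays. All K562 arrays were late and all U2OS arrays early, with no overlap. All 7 of its windows stayed called in 3 of the 7 processing settings and in 5 of the 7 fits that left out an array. The window at 13750001-14000000 fell by 2.77 (SE 0.32, adjusted p = 0.000437). A further domain of the same chromosome (32750001-34250000, 1500 kb) held the metalloprotease ADAMTS12 and NPR3, the natriuretic peptide clearance receptor. The means were -1.61 ± 0.36 for K562 and 0.52 ± 0.19 for U2OS (SD, n = 3 and 4), and all 6 of its windows were called under each of the 7 processing settings and without each array.

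Among other long domains later in K562, the domain of GRIP1, MSRB3 and HMGA2 (chromosome 12, 65250001-67000000), the latter a chromatin architectural protein of mesenchymal tumours, averaged -0.80 ± 0.20 in K562 and 0.63 ± 0.11 in U2OS (SD, n = 3 and 4), and all its windows were called in 4 of the 7 settings. The window before it was early in both lines (0.74 and 0.62) and the window after it late in both (-1.84 and -0.84), so in K562 the change from early to late lay at its left end and in U2OS at its right end. The domain of THSD4, LRRC49 and MYO9A (chromosome 15, 70750001-72250000) averaged -1.05 ± 0.20 and 0.79 ± 0.20, and lay between neighbours that were early in both lines (0.03 and 0.87 before it, 0.62 and 0.76 after it in K562 and U2OS). The domain of the neurotrimin gene NTM, SNX19 and ADAMTS15 (chromosome 11, 130250001-131750000) averaged -1.22 ± 0.63 and 0.52 ± 0.18. Here the old-sorting array read -0.55, against -1.80 and -1.33 on the other K562 arrays.

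Among domains of 2 or more windows, the widest gap was at RBMS1, ITGB6 and PLA2R1 (chromosome 2, 160750001-161500000). RBMS1 encodes an RNA-binding protein, ITGB6 an epithelial integrin subunit and PLA2R1 the phospholipase A2 receptor. The K562 arrays read -2.34, -1.35 and -1.83, and the U2OS arrays read 0.63, 0.67, 0.61 and 0.60. The U2OS values lay close together, above every K562 value, and the domain difference was -2.47. At UBE2E2, a ubiquitin-conjugating enzyme (chromosome 3, 23000001-23750000), the means were -1.66 ± 0.43 in K562 and 0.61 ± 0.08 in U2OS (SD, n = 3 and 4). At KCNH1, a potassium channel, HHAT, which palmitoylates hedgehog ligands, and SYT14 (chromosome 1, 210000001-211250000), they were -1.51 ± 0.32 and 0.60 ± 0.22. At OSBPL1A, TTC39C and HRH4 (chromosome 18, 21500001-22250000) they were -1.64 ± 0.48 and 0.36 ± 0.22, and at PSD3 and SH2D4A (chromosome 8, 18750001-19250000) -1.68 ± 0.64 and 0.31 ± 0.11. All windows of these 5 domains were called under each of the 7 processing settings and without each array.

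Lone windows with large shifts toward later in K562 included those of SEPTIN10 and SH3RF3, and of GPC5. The SEPTIN10 and SH3RF3 window (chromosome 2, 110250001-110500000) read -2.05, -1.22 and -1.27 in K562 and 1.07, 0.87, 1.28 and 1.30 in U2OS, the earliest U2OS mean among the named domains. It fell by 2.65 (SE 0.25, adjusted p = 0.00037), and the windows on both of its sides were untested. The window of GPC5, a heparan sulfate proteoglycan (chromosome 13, 93000001-93250000), was late in both lines at -2.58 ± 0.30 in K562 and -0.58 ± 0.11 in U2OS (SD, n = 3 and 4). Its red signal in K562 was 2.88 above the median window on the log2 scale, the highest among the named domains, and the part of local signal in this value was not tested.

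The longest domain earlier in K562 covered 1750 kb of chromosome 7 (7000001-8750000). It held NXPH1, a secreted ligand of neurexins, ICA1, an islet cell autoantigen, COL28A1, a collagen, and 5 other genes, among them GLCCI1 and RPA3, a subunit of replication protein A. The 7 windows averaged 0.80, 0.34 and 0.57 on the new-sorting, old-sorting and 44k K562 arrays and -0.89, -0.74, -1.89 and -1.84 on the manual 1, manual 2, automated 1 and automated 2 U2OS arrays. Every K562 array was early and every U2OS array late, the automated ones by about 1 log2 unit more than the manual ones. The window at 8000001-8250000 was higher in K562 by 2.43 (SE 0.34, adjusted p = 0.000885). All 7 windows stayed called in 3 of the 7 fits that left out an array.

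Chromosome 7 held further domains earlier in K562. On the short arm, the PHF14 domain (10500001-11250000), named for a chromatin-binding PHD finger protein, read 0.90, -0.04 and 0.58 in K562 and -0.94, -0.76, -1.96 and -1.92 in U2OS. The old-sorting K562 array was thus close to 0 there, still above every U2OS array. On the long arm, ELAPOR2, DMTF1 and TMEM243 (86500001-87000000) averaged 0.94 ± 0.38 in K562 and -0.88 ± 0.36 in U2OS (SD, n = 3 and 4), between neighbours that were late in both lines.

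The domain with the largest mean rise in K562 among runs of 2 or more windows was that of NRIP1, a corepressor of nuclear receptors, LIPI, a lipase, and SAMSN1, an adaptor protein of blood cells (chromosome 21, 15500001-16500000). The domain averaged 0.77 ± 0.29 in K562 and -1.25 ± 0.56 in U2OS (SD, n = 3 and 4), with U2OS arrays at -0.88, -0.68, -1.83 and -1.62. Every K562 array was early there, the old-sorting one least at 0.44, and every U2OS array late. The domain difference was 2.02, and its window at 15750001-16000000 rose by 2.24 (SE 0.32, adjusted p = 0.00105). The domain of STXBP5, ADGB and SAMD5 (chromosome 6, 147000001-148000000) averaged 0.87 ± 0.32 and -0.98 ± 0.43, and that of DTWD2, DMXL1 and TNFAIP8 (chromosome 5, 118000001-119000000) 0.76 ± 0.31 and -0.88 ± 0.28 (SD, n = 3 and 4). The domain of BTG1, an antiproliferative gene (chromosome 12, 92250001-92750000), averaged 0.91 ± 0.31 and -0.96 ± 0.42. At SLC25A21, MIPOL1 and PAX9 (chromosome 14, 36500001-38000000), the latter a paired box factor of tooth and skeletal development, the means were 0.49 ± 0.25 and -0.92 ± 0.54. Apart from the PAX9 domain, which kept all windows in 5 of the 7 settings and in 3 of the 7 fits without an array, the domains of this paragraph were called in full under each of them.

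The lone windows with the largest rises held GALNT5 and ERMN (chromosome 2, 158000001-158250000), TMEM131 and VWA3B (chromosome 2, 98500001-98750000), and ZNF518B and CLNK, an adaptor of immune receptor signalling (chromosome 4, 10250001-10500000). Their differences were 1.74 (SE 0.38, adjusted p = 0.00854), 1.73 (SE 0.28, adjusted p = 0.0017) and 1.68 (SE 0.25, adjusted p = 0.00127). At GALNT5 the old-sorting K562 array read -0.18 against 0.99 and 1.02 on the other K562 arrays. The GALNT5 call was lost without the new-sorting array (adjusted p = 0.0534) or the 44k array (adjusted p = 0.052).

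Further domains of 1 Mb or more held other regulators. Later in K562 were a 1250-kb domain of chromosome 3 (148500001-149750000) with WWTR1 (TAZ), a coactivator controlled by the Hippo pathway, TM4SF1 and CP, at -1.26 ± 0.23 in K562 and 0.71 ± 0.13 in U2OS (SD, n = 3 and 4). A 1500-kb domain of chromosome 6 (152000001-153500000) with ESR1, the estrogen receptor, was late in both lines at -1.63 ± 0.52 and -0.47 ± 0.32, and kept all its windows in only 3 of the 7 fits that left out an array. A 1500-kb domain of chromosome 4 (169000001-170500000) with PALLD, an actin-associated protein, averaged -1.01 ± 0.33 and 0.59 ± 0.06. A 1000-kb domain of chromosome 4 (182750001-183750000) averaged -1.26 ± 0.61 and 0.33 ± 0.07. No probe there had a gene name matched to a RefSeq symbol or synonym, so it may still hold genes. Earlier in K562 were a 1000-kb domain of chromosome 6 (118750001-119750000) with MCM9, a helicase of DNA repair, at 0.86 ± 0.27 and -0.72 ± 0.29, and a 1000-kb domain of chromosome 7 (103000001-104000000) with ORC5, a subunit of the origin recognition complex, and RELN, at 0.70 ± 0.41 and -0.91 ± 0.42.

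**Figure D3:**
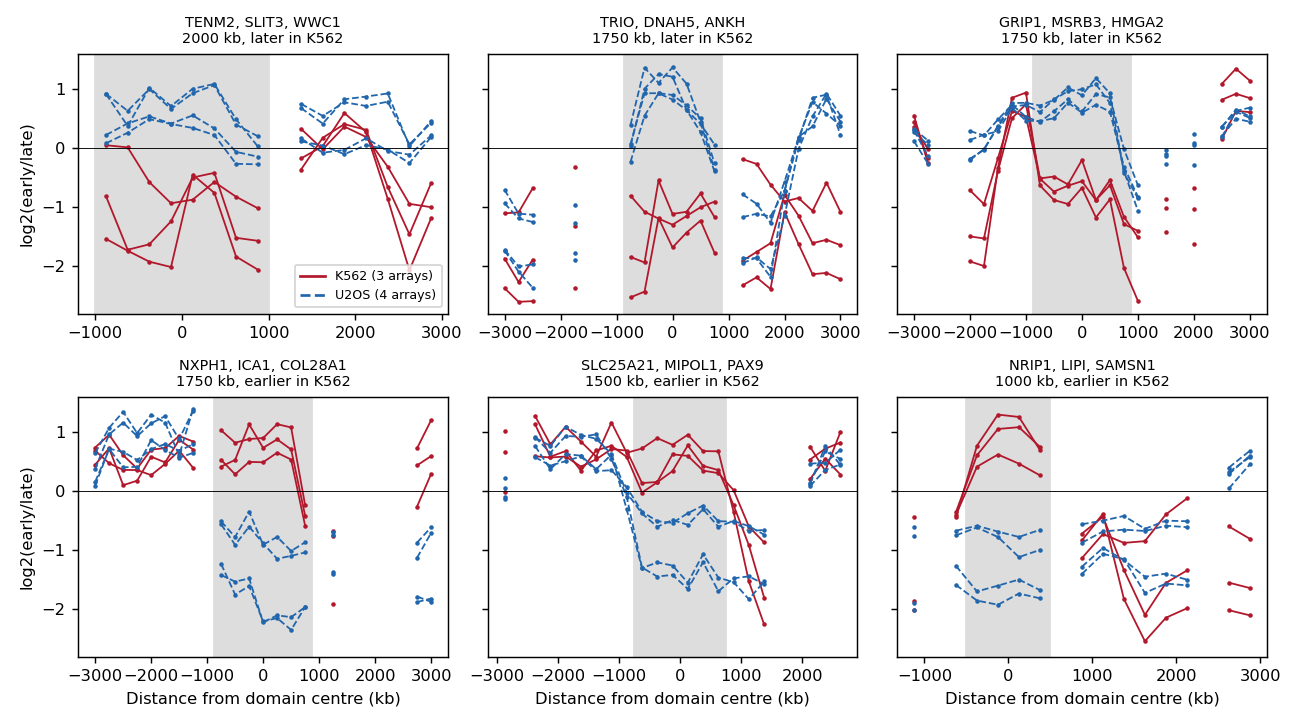
Each panel plots log2(early/late) of 250-kb windows against the distance in kb from the centre of a domain shaded in grey, with a line for each of the 3 K562 arrays (red, solid) and 4 U2OS arrays (blue, dashed); gaps are untested windows. In the upper row, the 3 longest domains later in K562, most U2OS points within the shading lie above 0 and nearly all K562 points below it, and in the lower row, the 3 longest domains earlier in K562, the order is reversed and the automated U2OS arrays run below the manual ones.

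Genes of the erythroid and megakaryocytic lineage were the listed group with most calls toward earlier in K562. Of 33 such genes tested, 8 lay in windows earlier in K562 (3.21% of all genes did) and 1 in a window later in K562, and the median difference was -0.08 against -0.12 over all genes. The 8 genes shared 6 windows. HBB, HBD and HBE1, which encode adult and embryonic beta-like globins, lay in a single domain of chromosome 11 (4750001-5500000). The HBB window (5000001-5250000) read 1.12, 0.46 and 1.04 on the new-sorting, old-sorting and 44k K562 arrays and -0.06, 0.16, -1.61 and -1.46 on the manual 1, manual 2, automated 1 and automated 2 U2OS arrays. All K562 arrays were early there and above every U2OS array, while the manual U2OS arrays lay near 0 and the automated arrays were late. The difference was 1.61 (SE 0.43, adjusted p = 0.0212), or 0.82 against the manual and 2.41 against the automated arrays alone. The call at HBB was lost without the new-sorting array (adjusted p = 0.0976), the 44k array (0.0877) or the automated 2 array (0.0524). The next window, with HBD and HBE1, differed by 1.13 (SE 0.36, adjusted p = 0.0455) and kept its call under 1 of the 7 processing settings.

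The calls at RHAG and at the platelet chemokine genes of that list held without each array. RHAG, the ammonium channel of the Rh complex (chromosome 6, 49500001-49750000), read 1.04, 0.08 and 0.74 in K562 and -0.77, -0.71, -1.36 and -1.41 in U2OS. The groups did not overlap, and RHAG was earlier in K562 by 1.68 (SE 0.28, adjusted p = 0.00214). PF4 and PPBP, the platelet chemokine genes, shared a window of chromosome 4 (74750001-75000000) and rose by 1.28 (SE 0.28, adjusted p = 0.00878), within a 1000-kb domain that also held ALB, AFP and 5 CXCL chemokine genes. CD36, a scavenger receptor of platelets and red cell precursors (chromosome 7, 80250001-80500000), went the other way, at -1.23 ± 0.82 in K562 and 0.09 ± 0.24 in U2OS (SD, n = 3 and 4, adjusted p = 0.0168), and lost its call without the new-sorting (0.0627) or 44k array (0.0676). Without background correction CD36 differed by -0.92 and was not called. The 24 genes of the list without a call included EPOR (-0.08), ITGA2B (-0.22) and ANK1 (-0.28), which were early in both lines, and GYPC and KIT, which differed by 0.90 and 0.76 at adjusted p = 0.0066 and 0.0127 and so fell short of the size limit alone. The earlier count was 5 without background correction or after scaling to a common spread, and 9 after centring on the mean.

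Of 28 blood lineage transcription factor genes tested, 2 were later in K562, 1 was earlier and 25 had no call, with a median difference of -0.27. The share called, 10.7%, was near the 8.7% of all genes. IKZF1, the lymphoid zinc finger factor Ikaros (chromosome 7, 50250001-50500000), read 1.05, 0.62 and 0.97 in K562 and -0.43, -0.26, -0.41 and -0.27 in U2OS. It was early on every K562 array and late on every U2OS array (difference 1.22, SE 0.19, adjusted p = 0.00157), by 1.23 against the manual and 1.22 against the automated arrays. The ETS family genes FLI1 and ERG, which act in megakaryocytic and endothelial cells, were later in K562. ERG (chromosome 21, 39750001-40000000) read -1.16, -1.14 and -0.96 in K562 and 0.29, 0.29, 0.67 and 0.50 in U2OS (difference -1.53, SE 0.19, adjusted p = 0.000593). FLI1 (chromosome 11, 128500001-128750000) averaged -1.07 ± 0.53 and 0.27 ± 0.22 (SD, n = 3 and 4, adjusted p = 0.00473) in a domain of 1250 kb that also held ETS1. Also of this list, KLF1 (-0.11), TAL1 (-0.14) and GATA2 (-0.39) had no call and were early in both lines. MYB and GFI1 differed by 0.75 and 0.69 (adjusted p = 0.025 and 0.0285), under the size limit. Without background correction, IKZF1, FLI1 and ERG kept their direction and adjusted p values of 0.0043 to 0.00631 but fell short of the size limit, at 0.95, -0.98 and -0.99.

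Of 36 leukocyte surface genes tested, 3 were earlier and 2 later in K562, with a median difference of 0.03. The share called was 13.9%, against 8.7% of all genes. The costimulatory receptor gene CD2 (chromosome 1, 117250001-117500000) was earlier by 1.12 (SE 0.22, adjusted p = 0.00486) and read 1.51, 0.73 and 1.28 in K562 against values of at most 0.15 in U2OS. Without the new-sorting array the CD2 difference was 0.95, and without background correction it was 0.91. CD53, a tetraspanin (chromosome 1, 111250001-111500000), was earlier by 1.30 (SE 0.22, adjusted p = 0.00215), and CD69, an activation marker (chromosome 12, 9750001-10000000), by 1.44 (SE 0.34, adjusted p = 0.0116, or 0.0637 without the new-sorting array). CD38, an ectoenzyme (chromosome 4, 15750001-16000000), and IL7R, the interleukin-7 receptor (chromosome 5, 35750001-36000000), were later by -1.59 (SE 0.18, adjusted p = 0.000444) and -1.65 (SE 0.21, adjusted p = 0.000655).

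Adhesion and signalling genes of adherent cells were the listed group with most calls toward later in K562. Of 58 tested, 17 were later (5.49% of all genes were) and 1 was earlier, and the median difference was -0.49 against -0.12 over all genes. The later count was 9 without background correction and 15 to 22 under the other 6 settings. Among growth factor receptor genes, PDGFRA (chromosome 4, 55000001-55250000) read -0.84, -0.75 and -0.83 in K562 and 1.45, 1.43, 0.93 and 0.95 in U2OS. The K562 arrays lay close together, far below every U2OS array, and the difference was -1.99 (SE 0.21, adjusted p = 0.000373). The orphan receptor gene ROR1 (chromosome 1, 64250001-64500000) fell by the same 1.99 (SE 0.24, adjusted p = 0.000496). FGFR2 (chromosome 10, 123250001-123500000) averaged -0.95 ± 0.22 in K562 and 0.23 ± 0.46 in U2OS, and EGFR (chromosome 7, 55000001-55250000) -1.33 ± 0.53 and -0.03 ± 0.57 (SD, n = 3 and 4, adjusted p = 0.00962 and 0.0189). The EGFR window was early on the manual arrays (0.36 and 0.57) and late on the automated ones (-0.49 and -0.55). The EGFR call was lost without the new-sorting array (adjusted p = 0.0948) and the FGFR2 call without the 44k array (0.0508). Without background correction EGFR and FGFR2 differed by -0.94 and -0.87 and neither was called.

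Genes of transforming growth factor beta signalling fell within the same list. TGFB2, a ligand (chromosome 1, 218500001-218750000), read -2.17, -1.54 and -1.54 in K562 and 0.50, 0.50, 0.51 and 0.62 in U2OS. All K562 arrays were far on the late side and all U2OS arrays early (difference -2.28, SE 0.21, adjusted p = 0.00037). The receptor gene TGFBR2 (chromosome 3, 30500001-30750000) fell by 1.31 (SE 0.28, adjusted p = 0.00705), the ligand gene BMP4 (chromosome 14, 54250001-54500000) by 1.78 (SE 0.27, adjusted p = 0.0014) and GREM1, which encodes a secreted antagonist of bone morphogenetic proteins (chromosome 15, 33000001-33250000), by 1.47 (SE 0.19, adjusted p = 0.000655). INHBA, the activin A subunit (chromosome 7, 41500001-41750000), fell by 1.15 (SE 0.32, adjusted p = 0.025) and was late in both lines. The INHBA call was lost without the new-sorting (adjusted p = 0.115), 44k (0.123) or manual 2 array (0.0531). Without background correction TGFBR2 and INHBA differed by -0.89 and -0.77 and neither was called.

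The rest of the group comprised integrins, secreted modulators and guidance genes. ITGA1 and ITGA2, which encode collagen-binding integrin subunits and lie side by side on chromosome 5 (52000001-52500000), fell by 1.48 and 1.29 (adjusted p = 0.00304 and 0.00117). Without background correction ITGA2 differed by -0.94 and was not called. CCN1 and CCN2, matricellular genes induced in spread cells, fell by 1.65 and 1.12 (adjusted p = 0.00047 and 0.00243), and without the new-sorting array the CCN2 difference was -0.99; the CCN2 call was also lost in 3 of the 7 settings. NRP1, a semaphorin and VEGF coreceptor (chromosome 10, 33500001-33750000), averaged -0.83 ± 0.40 in K562 and 0.89 ± 0.11 in U2OS (SD, n = 3 and 4, adjusted p = 0.000655), and SLIT3 averaged -1.55 ± 0.52 and -0.05 ± 0.21 (adjusted p = 0.00244). IGFBP3, an insulin-like growth factor binding protein, fell by 1.06 (adjusted p = 0.0108) but by 0.97, 0.92 and 0.98 without the new-sorting, automated 1 and automated 2 array, and by 0.83 to 0.98 in the 4 of the 7 settings that lost its call. CDH2, or N-cadherin (chromosome 18, 25500001-25750000), fell by 1.16 (SE 0.37, adjusted p = 0.0484), and its old-sorting value of -0.02 overlapped the U2OS values of -0.31 to 0.44. Without background correction and after scaling to a common spread CDH2 differed by -0.82 and -0.90 and was not called. The CDH2 call was also lost on leaving out the new-sorting, 44k, manual 2, automated 1 or automated 2 array (adjusted p between 0.0733 and 0.198). The endothelial adhesion gene VCAM1 (chromosome 1, 101000001-101250000) was the gene earlier in K562, by 1.11 (SE 0.29, adjusted p = 0.0188), and its call was lost without any of the same arrays except manual 2 (differences of 0.94 to 1.06). Scaled to a common spread, VCAM1 differed by 0.93 and was not called. Among the 40 uncalled genes, PDGFRB (0.01), FGFR1 (0.05) and ITGB1 (-0.25) were early in both lines, and WNT5A and ITGAV differed by -0.96 and -0.65 at adjusted p = 0.0363 and 0.0268.

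Of 53 collagen and matrix genes tested, 9 were later and 1 earlier in K562, and the median difference was -0.24. The share called was 18.9%, against 8.7% of all genes. TNC, which encodes tenascin C (chromosome 9, 117750001-118000000), read -2.12, -1.10 and -1.72 in K562 and 0.29, 0.45, 0.81 and 0.85 in U2OS (difference -2.25, SE 0.27, adjusted p = 0.000476). The basement membrane genes NID2 (chromosome 14, 52250001-52500000) and LAMC1 (chromosome 1, 183000001-183250000) fell by 2.14 and 1.53 (adjusted p = 0.00037 and 0.000557). At LAMC1 the U2OS arrays lay between 0.75 and 0.86 and the K562 arrays between -0.93 and -0.51. Among collagens, COL24A1, COL21A1, COL5A1 and COL12A1 fell by 1.98, 1.65, 1.40 and 1.04 (adjusted p = 0.000805, 0.000728, 0.00646 and 0.00743). The COL12A1 difference was -0.82 without the new-sorting array and -0.99 without the manual 2 array, and its call was lost in 4 of the 7 settings (differences of -0.97 to -0.70). VCAN, the proteoglycan versican, and SPP1, or osteopontin, of bone matrix, fell by 1.18 and 1.26 (adjusted p = 0.00388 and 0.00285), from U2OS means close to the array median (-0.09 ± 0.23 and -0.11 ± 0.14; SD, n = 4). Without background correction VCAN and SPP1 differed by -0.74 and -0.90 and neither was called. MFAP5, a microfibril protein, was earlier by 1.03 (adjusted p = 0.0342) and lost its call without the new-sorting, 44k, automated 1 or automated 2 array (adjusted p between 0.0816 and 0.142). MFAP5 was also not called without background correction (0.75) or after scaling to a common spread (0.82). COL1A1, the main collagen of bone, was early in both lines (0.58 ± 0.22 and 0.41 ± 0.28; SD, n = 3 and 4) and had no call, and COL1A2 was late in both (-1.55 ± 0.50 and -0.74 ± 0.47) with an adjusted p of 0.087.

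Of 41 skeletal and mesenchymal transcription factor genes tested, 6 were later and 2 earlier in K562, and the median difference was -0.18. The share called was 19.5%, against 8.7% of all genes. The later count was 3 without background correction and 11 with the deposited log ratio or a normexp offset of 0. The later count over all genes moved the same way, from 874 to 384, 1286 and 1315. MSX2, a homeobox factor of bone and limb (chromosome 5, 174000001-174250000), read -1.58, -1.22 and -1.26 in K562 and 0.06, -0.03, 0.95 and 0.74 in U2OS (difference -1.79, SE 0.27, adjusted p = 0.00131). SOX9, a cartilage regulator (chromosome 17, 70000001-70250000), read -2.06, -0.98 and -1.30 in K562 and -0.21, 0.03, 0.38 and 0.36 in U2OS (difference -1.59, SE 0.28, adjusted p = 0.00269). The groups did not overlap at either gene, and the manual U2OS arrays lay close to 0 at both. TBX3 (chromosome 12, 115000001-115250000) and PAX3 (chromosome 2, 223000001-223250000), of limb and of muscle and neural crest, were late in both lines and fell by 1.31 and 1.15 (adjusted p = 0.00169 and 0.0209). Without background correction TBX3 differed by -0.86 and was not called. GLI2, a hedgehog effector, and SIX2 fell by 1.24 and 1.01 (adjusted p = 0.0142 and 0.00424).

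ZEB2, an inducer of epithelial-mesenchymal transition that also acts in blood cells (chromosome 2, 145000001-145250000), was earlier in K562. It read 1.32, 0.73 and 1.06 there and -0.73, -0.47, -1.29 and -1.11 in U2OS. Every K562 array was early and every U2OS array late, and the difference of 1.93 (SE 0.25, adjusted p = 0.000651) was the largest rise among the listed genes. The call of PAX3 was lost without the new-sorting, 44k, automated 1 or automated 2 array (adjusted p between 0.0502 and 0.094), that of GLI2 without the new-sorting (0.0616) or 44k array (0.0584), and SIX2 fell by 0.94 to 0.96 without the old-sorting, automated 1 or automated 2 array. PAX3 and SIX2 each lost their call in 3 of the 7 settings. RUNX2 and SP7, which direct osteoblast formation, differed by 0.19 and -0.18 (adjusted p = 0.629 and 0.623).

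**Figure D4:**
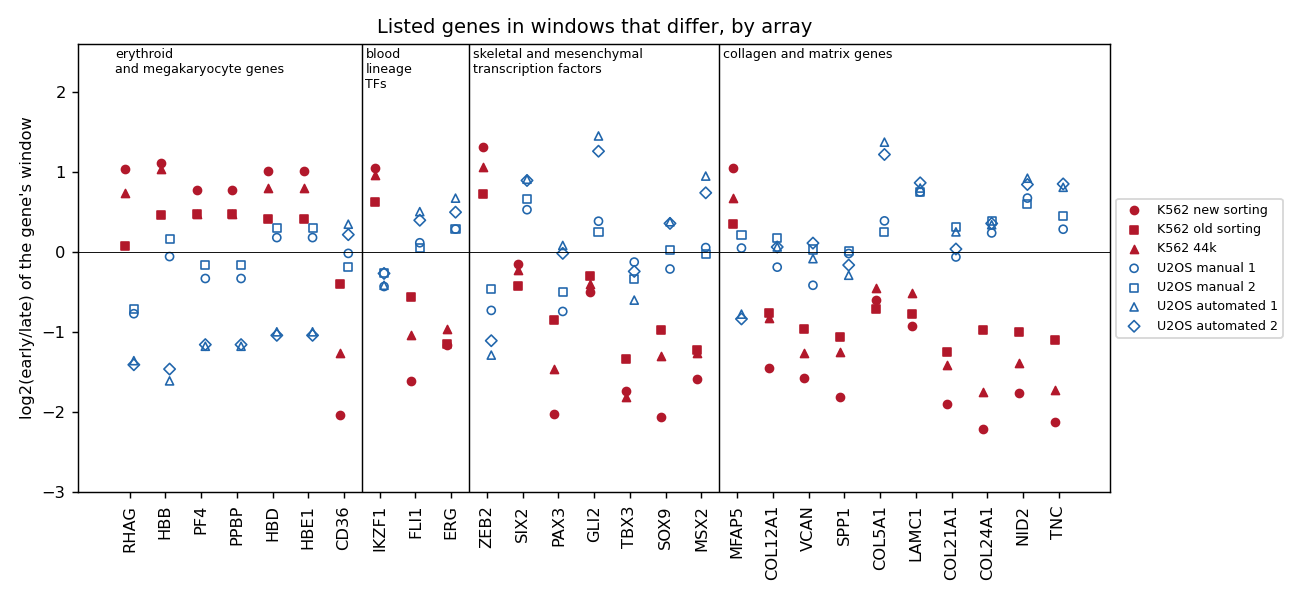
Each column is a gene of 4 of the lists that lay in a called window, and each marker is the log2(early/late) of that window on 1 array, filled red for K562 and open blue for U2OS. The beta-like globin and RHAG columns show K562 above U2OS with the automated arrays lowest, and the collagen and matrix columns, apart from MFAP5, show K562 below U2OS.

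Giant neuronal and synaptic genes, which replicate late in most cells, were late in both lines: the median gene read -1.22 in K562 and -1.05 in U2OS. Of 63 tested, 7 were later and 1 earlier in K562, a called share of 12.7% against 8.7% of all genes. CSMD2 (chromosome 1, 34000001-34250000) fell by 1.37 (adjusted p = 0.00175), and TENM2, NRG1 and NTM fell by 1.57, 1.56 and 1.42 (adjusted p = 0.0137, 0.0125 and 0.0184). At TENM2 the old-sorting K562 array read 0.01, against -1.74 and -1.72 on the new-sorting and 44k arrays, and at NRG1 it read -0.32 against -2.13 and -1.82. The calls of TENM2, NRG1 and NTM were lost without the new-sorting or 44k array (adjusted p between 0.0612 and 0.0789). DPP6, DSCAM and CNTNAP2 were late in both lines and fell by 1.05, 1.12 and 1.18 (adjusted p = 0.00242, 0.0233 and 0.0451). The CNTNAP2 call was lost in 6 of the 7 settings and without any array except the old-sorting one (adjusted p between 0.0501 and 0.21), the DSCAM call without the new-sorting (0.0825), 44k (0.0879) or automated 2 array (0.0607), and DPP6 fell by 0.99 without the new-sorting array and by 0.68 to 0.99 in the 6 of the 7 settings that lost its call. The 1 list member earlier in K562, FHIT, is a tumour suppressor across a fragile site and not a neuronal or synaptic gene. Its window (chromosome 3, 60000001-60250000) read 0.01 ± 0.12 in K562 against -1.10 ± 0.35 in U2OS (SD, n = 3 and 4, adjusted p = 0.00593). The FHIT difference was 0.98 without the automated 1 array. The later count of the list was 3 without background correction. NTM, DSCAM and FHIT were not called under that setting, at -0.99, -0.65 and 0.97. DSCAM was also not called after scaling to a common spread (-0.93).

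The HOX clusters and ribosomal protein genes served as groups of clustered developmental and of constantly expressed genes. The 33 HOX genes tested lay in only 6 windows, of which 1 was called. It held 9 HOXA genes (chromosome 7, 27000001-27250000) and read -0.82, -0.55 and -0.58 in K562 and 0.31, 0.34, 0.69 and 0.39 in U2OS. HOXA9 and its neighbours in that window were late in K562 and early in U2OS (difference -1.08, SE 0.19, adjusted p = 0.00301). The difference fell just under the size limit without background correction (-0.84), after loess (-0.94) and after centring on the mean (-0.97), and also, by less than 0.01, without the new-sorting or the automated 1 array (adjusted p = 0.0126 and 0.0113). None of 60 ribosomal protein genes tested lay in a window called by limma, while 9 had an unadjusted and 6 an adjusted p under 0.05 with differences under 1. Their median gene was early in both lines (0.48 and 0.64). With the deposited log ratio, 1 of the 60 was later and 5 were earlier in K562. Of all 15907 genes, 1286 were later and 1320 earlier under that setting, so the 5 do not set these genes apart.

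**Figure D5:**
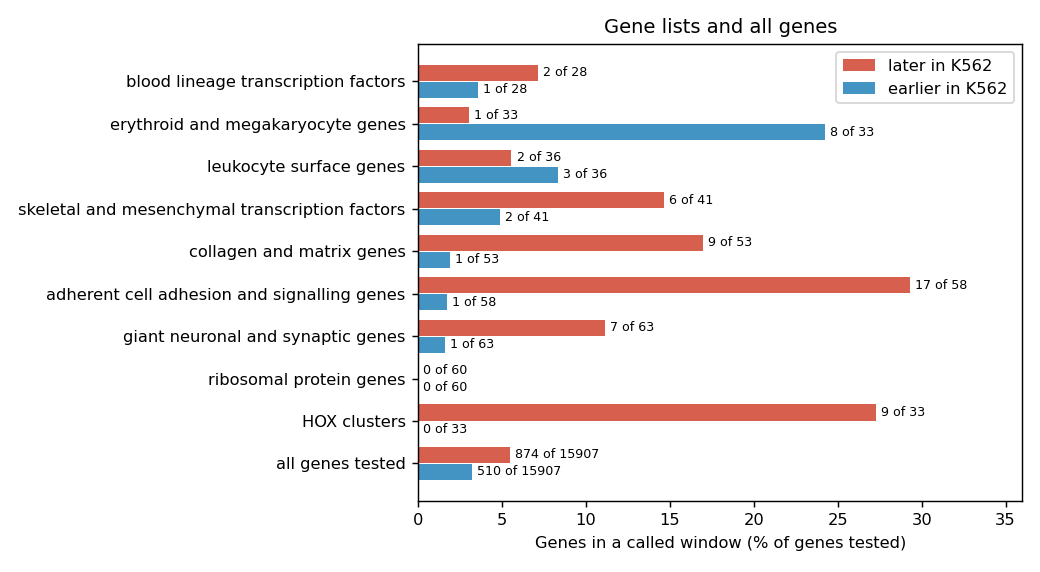
The bars give the percentage of tested genes of each list that lay in a window called later (red) or earlier (blue) in K562, with the counts beside them and all 15907 genes in the last row. The adherent cell list has 17 of 58 genes later and the erythroid and megakaryocyte list 8 of 33 earlier, the HOX count rests on 1 window, and no ribosomal protein gene was called.

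The lists were chosen with earlier results of these data known, and their genes share windows, so the counts describe these lists and have no test of their own. They stand beside the all-gene shares of 5.49% later and 3.21% earlier, which hold for the settings used here. The all-gene counts, 874 later and 510 earlier of 15907, also moved with the processing. They were 384 and 337 without background correction, and 1315 and 1136 with a normexp offset of 0. After loess they were 701 and 622, scaled to a common spread 803 and 369, and centred on the mean 710 and 731. The deposited log ratio gave 1286 and 1320, or 1348 and 1386 after scaling.

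The arrays were checked for known marks of the lines. At the CDKN2A window of chromosome 9 (21750001-22000000), which K562 is known to have lost, the green and red signals in K562 lay -1.25 and -1.54 from the median window on the log2 scale, against 0.13 and -0.81 in U2OS. The red signals overlapped there, with the 44k K562 array at -1.14 and the automated U2OS arrays at -1.27 and -1.15. At ABL1 (chromosome 9, 133500001-133750000), amplified in K562 with its BCR fusion, they lay 1.32 and 0.65 above it in K562, against 0.48 and -0.44 in U2OS. At BCR (chromosome 22, 23500001-23750000) they lay 0.88 and 0.40 above it in K562, against 0.66 and -0.16 in U2OS. The green signals at BCR overlapped, at 1.13, 0.65 and 0.85 in K562 and 0.39, 0.12, 1.13 and 0.99 in U2OS. The red signals there did not overlap. A ratio from a window with little DNA in both channels says little of timing. In K562, 15 of the 8436 windows had both channels at least 1 log2 unit below the median, and 3 of them were among the 366 windows called earlier in K562, at 23500001-23750000, 26000001-26250000 and 31000001-31250000 of chromosome 9. In U2OS 1 window was this low, at 22500001-22750000 of chromosome 19, and it was called later in K562. The CDKN2A window was itself among the 15, and no window of a called domain or gene described above was. The control loci of the labels, BMP1 (early) and DPPA2 (late), read 0.47 ± 0.42 and -1.29 ± 0.77 in K562 and 0.50 ± 0.25 and -1.31 ± 0.56 in U2OS (SD, n = 3 and 4), and neither was called.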

How the data were processed

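Each of the 7 files is the scanner output of 1 two-colour array. The deposited intensity values are mean spot signals and median local backgrounds per channel, and the deposited log10 ratio (late over early) comes from signals that were background-subtracted and dye-normalized, all by Agilent Feature Extraction 11.5.1.1 per the file headers (9.1 per the submitters' processing notes). Control, saturated, non-uniform and manually flagged spots were left out. The background was corrected by normexp with an offset of 50 (limma 3.58.1, R 4.3.3), log2(early/late) was centred on the autosomal median, and repeated probes were averaged. The offset pulls dim spots toward 0. Window means of log2 values, derived here and set beside log2 values turned from the log10 ratio that the authors deposited, were tested with lmFit and eBayes (K562 minus U2OS, group alone). The share of probes well above background in either channel was 81.0% to 99.6% by array, and the number of arrays limits the precision.

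Of 23767 gene names on the array, 16140 matched a RefSeq symbol or synonym (GRCh38.p14, names only), and 19 placed on another chromosome were dropped. Each gene took the window with most of its probes. Named were, per direction, the 6 longest domains, the 6 of 2 or more windows with the largest mean difference and 3 lone windows, each with up to 3 genes by probe number, every called member of 9 gene lists, BMP1 and DPPA2. Beyond that rule, uncalled genes, further genes of a domain and 6 further domains of 1 Mb or more are given as examples chosen after their values were seen. The members, lists and alternatives were chosen with earlier results of these data known. Only the limma fit was tested on simulated data, on window values with independent Gaussian noise. Background correction, averaging of probes, the size limit and the joining of windows into domains were not part of that test. Chromosomes X and Y were not used here. Some items that the naming rule selects are not reported here, and the counts include them.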

Additional observations from a re-analysis of the deposited data

Results flagged for a closer look

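In 98 named domains and gene windows, the 4 U2OS arrays were checked for an array whose gap to the nearest other exceeded Dixon's critical value for 4 values as a share of their whole range, which chance alone gives in about 1 of 20 groups of 4, and 4 of the 98 met it. In the PSD3 domain (chromosome 8, 18750001-19250000) the manual 2 array read 0.47 and the others 0.24 to 0.27. In the IL7R window the manual 2 array read 0.44 and the others 0.17 to 0.19. In the CD53 window the automated 2 array read -1.23 and the others -0.85 to -0.80. In the TGFB2 window the automated 2 array read 0.62 and the others 0.50 to 0.51. Each of these values lay farther from K562 than the other U2OS arrays.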

How the results depend on the processing

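The 1129 called windows (13.4% of 8436) became 595 without background correction and 1915 with a normexp offset of 0. They became 1992 with the deposited log ratio and 2132 with that ratio scaled to a common spread. With no minimum difference they became 1810 (also at 0.5), and 367 at 1.5. Where the windows themselves changed, so did the number tested. The count was 577 of 5216 (11.1%) in 500-kb windows and 731 of 5747 (12.7%) with at least 5 probes. In 100-kb windows on the 6 arrays of the larger design it was 2252 of 22917 (9.83%). The 603 domains became 358, 909, 945 and 1003 under the first 4 of these settings, 383 in 500-kb windows and 219 at 1.5. Both counts stayed within 1.5 times under the other settings run. In 250-kb windows on the 6 arrays of the larger design more windows were tested, and 916 of 10584 (8.65%) were called. Leaving out 1 array gave 793 to 1618 windows and 457 to 823 domains, lowest without the new-sorting and highest without the old-sorting K562 array. Of the called windows, 570 (50.5%) were called under all 7 processing settings, 718 without each array and 507 under both. For the 96 named differences and 14 alternatives each, 1157 of 1344 values kept their call and 187 kept the direction only, 38 of them without background correction and 34 without the new-sorting array. Slide as a random block could not be fitted. Averaging the 2 manual arrays of 1 slide gave 1202 windows. That setting and the fit of 250-kb windows on 6 arrays of the larger design were chosen after seeing the data. No paired analysis was possible because the K562 titles carry no replicate numbers. No slide held both lines, so slide and line cannot be told apart. The cause of these shifts was not tested.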
